A study of Mus musculus with 9 samples.

Results

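Salt-inducible kinases, CREB-regulated transcription coactivators and class IIa histone deacetylases form the kinase, coactivator and corepressor layers of a cAMP-controlled switch, and their RNA levels were followed in mouse adipocytes exposed to parathyroid hormone peptides. The 9 genes examined were Sik1, Sik2, Sik3, Crtc1, Crtc2, Crtc3, Hdac4, Hdac5 and Hdac7. They were chosen by gene family, with earlier results of these data known, and no measured value entered the rule itself. Every probe set that the platform annotation assigns to 1 of them alone was taken, which gave 22 probe sets for 9 of the 18193 genes that had a probe set of their own, among 45037 probe sets tested.

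The cells were primary white adipocytes, grown out of the stromal-vascular fraction of inguinal fat and differentiated in culture. The donors were male C57BL6 mice between 30 and 35 days old. One group received PTH(1-34) and one PTHrP(1-34), each at 100 ng/ml for 4 h on day 8 of differentiation, and the last was the control, with 3 arrays per group. The sources used here do not say what was added to the controls. Cells of all 3 groups had been differentiated with insulin (5 µg/ml), rosiglitazone (1 µM), dexamethasone (1 µM) and isobutylmethylxanthine (0.5 µM), a phosphodiesterase inhibitor that raises cAMP. The first step lasted 2 days, insulin and rosiglitazone were continued after it, and plain medium was used from day 6. The replicates are called biological, but no label says whether they came from separate mice or cultures, and the p-values rest on the spread between these samples alone, which may be technical.

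PTH and PTHrP bind the same receptor, PTH1R, which couples to Gs and raises cAMP. In the resting state, salt-inducible kinases phosphorylate CRTC proteins and class IIa HDACs, and 14-3-3 proteins then hold both in the cytoplasm. Protein kinase A phosphorylates and restrains the salt-inducible kinases, whereupon CRTCs enter the nucleus to coactivate CREB, and class IIa HDACs enter it to repress MEF2 factors. This control acts on proteins, and Sik1 is in addition a textbook CREB target whose RNA is made in response to cAMP. The arrays measured RNA, and they carry no information on phosphorylation, protein amount or location.

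Each value is the deposited signal of a probe set, a fluorescence intensity per array. Changes are differences of log2(signal + 16), which understate the change of dim probe sets, and they were tested with limma over all probe sets with Benjamini-Hochberg adjustment at 0.05. Signals of different probe sets cannot be set against each other, since probes differ in how well they bind. A dim level of 29.0, the 40th percentile of mean signals, was used to mark weak probe sets. Of the 22 probe sets, 19 lay above it, and the 3 below were one each for Sik1, Sik3 and Crtc1.

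Most of the 22 probe sets did not pass the test after 4 h of either peptide. With PTH, 1 of 22 passed, a probe set for Hdac4 that rose, where 2.70% of all probe sets passed. With PTHrP, the same probe set rose and no other member passed, against 2.39% of all probe sets. With both peptides combined against control it was again 1 of 22, set beside 4.13% of all probe sets in either direction and 2.00% that rose. A count of 1 in 22 lies near these background shares. At an unadjusted p under 0.05 there were 7 of 22 with PTH, beside 14.7% of all probe sets, 4 of 22 with PTHrP, beside 6311 of all 45037 probe sets, and 6 of 22 with both, beside 16.4% of all. Each of these counts is above its background share, and the difference was not tested. The median change of the 22 was -0.03 with PTH and -0.01 with PTHrP, and over all probe sets it was -0.01 and -0.00. With each peptide 10 of the 22 estimates were above 0 and 12 below.

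On the scale of signal + 16, the precision bounds what could have been missed. For the 19 probe sets above the dim level, every 95% interval against control lay between -0.58 and 0.76 on the log2 scale with PTH, and between -0.44 and 0.68 with PTHrP. A doubling or a halving of signal + 16 therefore lies outside the interval of each of them. Intervals lay wholly within 0.5 log2 units of 0 for 14 of the 19 with PTH and for 17 with PTHrP. These bounds do not carry over to the signal itself where it is weak. With 1 added in place of 16, the change of Sik1 1419766_at with PTH was 0.61 (SE 0.18).

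**Figure D1:**
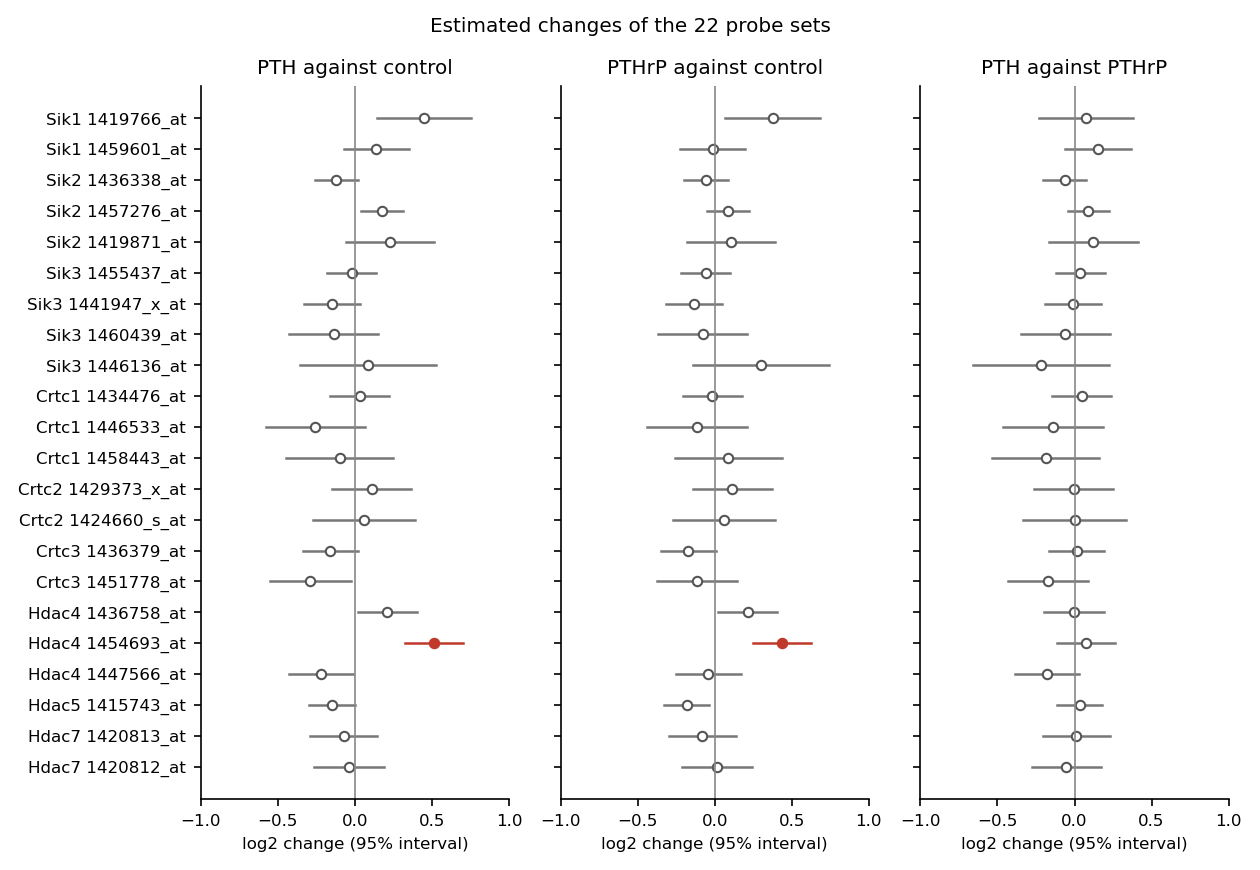
Log2 change of signal + 16 with its 95% confidence interval for each of the 22 probe sets, with PTH against control on the left, PTHrP against control in the middle and PTH against PTHrP on the right. Filled red symbols passed the adjusted threshold of 0.05, as 1 probe set of Hdac4 did in each comparison with control and 0 did between the peptides.

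Sik1, the inducible kinase of the family, had signals of 44.6, 60.3 and 51.0 on the PTH arrays, 49.5, 60.0 and 37.3 on the PTHrP arrays, and 35.3, 31.1 and 34.4 on the control arrays (1419766_at). All 6 treated arrays lay above all 3 controls, and the controls lay close to the dim level. The estimated log2 change was 0.45 with PTH (SE 0.13, adjusted p = 0.146) and 0.38 with PTHrP (SE 0.13, adjusted p = 0.242), neither of which passed. Both peptides combined gave 0.41, with a 95% interval of 0.15 to 0.68 and an adjusted p of 0.102. This comparison passed without the third PTHrP array, at 0.48 and adjusted p = 0.0368. It also passed with the dimmest 40% of probe sets left out, at an unchanged 0.41 (adjusted p = 0.0476). In that setting 3093 of the 27022 probe sets kept passed, against 4.13% of all probe sets in the main fit. The other Sik1 probe set (1459601_at) was below the dim level, with signals of 8.5 to 17.1 over the 9 arrays.

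Sik2, the isoform first described in adipose tissue, had signals of 3034, 2857 and 3023 with PTH, 3098, 3054 and 3163 with PTHrP, and 3289, 3383 and 3024 in controls at its brightest probe set (1436338_at). The treated and control arrays overlapped. The log2 change was -0.12 with PTH (95% interval -0.26 to 0.02) and -0.06 with PTHrP (-0.20 to 0.08), and neither passed. A further Sik2 probe set (1457276_at) read 647, 631 and 651 with PTH, 623, 622 and 566 with PTHrP, and 578, 574 and 549 in controls. There every PTH array lay above every control, while the PTHrP arrays overlapped the controls, and the changes of 0.18 and 0.09 did not pass (adjusted p = 0.196 and 0.597). The last (1419871_at) had changes of 0.23 and 0.11 with overlapping arrays, so the 3 probe sets of Sik2 did not share a sign.

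Sik3, a broadly expressed kinase known to phosphorylate class IIa HDACs, had signals of 1016, 932 and 1054 with PTH, 1007, 1005 and 911 with PTHrP, and 1026, 1044 and 973 in controls (1455437_at). The 3 groups overlapped. Its log2 change was -0.02 with PTH (95% interval -0.18 to 0.14) and -0.06 with PTHrP (-0.22 to 0.10). The other Sik3 probe sets above the dim level had changes of -0.15 and -0.14 with PTH and of -0.13 and -0.08 with PTHrP, and neither passed. One of them (1441947_x_at) is of a design that can share probes with other transcripts.

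The CRTC genes encode the coactivators that bind CREB once they are dephosphorylated, and none of their 7 probe sets passed in any comparison. Crtc1, best known from brain, read 142.0, 123.3 and 131.9 with PTH, 113.4, 141.3 and 129.4 with PTHrP, and 129.9, 124.7 and 132.9 in controls (1434476_at). The arrays overlapped, and the changes were 0.03 with PTH (95% interval -0.16 to 0.22) and -0.02 with PTHrP (-0.21 to 0.18). A second Crtc1 probe set had changes of -0.26 and -0.11, again with overlap, and the third was below the dim level.

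Crtc2, the coactivator known for hepatic gluconeogenesis, had signals of 103.7, 139.4 and 119.6 with PTH, 119.6, 137.1 and 106.7 with PTHrP, and 113.4, 112.9 and 104.4 in controls (1429373_x_at). The groups overlapped, with a log2 change of 0.11 for each peptide. Its other probe set (1424660_s_at) had a change of 0.06 for each. Both Crtc2 probe sets are of designs that can share probes with other transcripts.

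Crtc3, a coactivator studied in adipose tissue for its part in catecholamine signalling, read 270, 309 and 296 with PTH, 308, 286 and 272 with PTHrP, and 353, 319 and 310 in controls (1436379_at). All 6 treated arrays lay below all 3 controls, by less than 2 units of signal at the closest pair. The changes of -0.16 with PTH and -0.17 with PTHrP did not pass (adjusted p = 0.409 and 0.379). In its second probe set (1451778_at) the PTH arrays, at 174, 151 and 182, lay below the controls at 203, 205 and 222. The PTHrP arrays of that probe set, at 169, 231 and 182, overlapped the controls, and its change of -0.29 with PTH had an adjusted p of 0.282.

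Hdac4 encodes a class IIa deacetylase that represses MEF2 factors, and it held the only probe set that passed. At 1454693_at the signal was 143.8, 132.4 and 147.7 with PTH, 127.4, 132.4 and 140.1 with PTHrP, and 99.9, 101.4 and 82.7 in controls. Every treated array lay well above every control, with means of 141 ± 7.97 for PTH, 133 ± 6.41 for PTHrP and 94.7 ± 10.4 for control (SD, n = 3 each). The rise was 0.51 log2 units with PTH (SE 0.08, 95% interval 0.32 to 0.70, adjusted p = 0.0168), a 1.42-fold change of signal + 16. With PTHrP it was 0.44 (SE 0.08, 95% interval 0.25 to 0.62, adjusted p = 0.0334), a 1.35-fold change. For both peptides together it was 0.47 (95% interval 0.31 to 0.64, adjusted p = 0.00917).

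The combined Hdac4 call held when any 1 of the 9 arrays was left out, with changes of 0.39 to 0.52 and adjusted p-values of 0.0196 to 0.0311. The PTH call was lost without PTH array 1 (adjusted p = 0.0703) or PTH array 3 (adjusted p = 0.0878). The PTHrP call was lost when any 1 of the 9 arrays was left out, with adjusted p-values of 0.0543 to 0.102. Both single-peptide calls were also lost, at the same changes of 0.51 and 0.44, when only the groups compared entered the fit (adjusted p = 0.0582 with PTH and 0.116 with PTHrP).

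The other probe sets of Hdac4 did not give the same picture. The brightest (1436758_at) read 235, 210 and 213 with PTH, 200, 215 and 247 with PTHrP, and 191, 193 and 178 in controls. All treated arrays again exceeded all controls, but the change of 0.21 with each peptide did not pass (adjusted p = 0.285 and 0.293). The third (1447566_at) read 51.8, 54.7 and 41.9 with PTH, 52.6, 64.9 and 56.3 with PTHrP, and 61.9, 58.5 and 59.3 in controls. Its changes were -0.22 with PTH, where all 3 arrays lay below the controls, and -0.04 with PTHrP, and neither passed. Averaged over its 3 probe sets, Hdac4 had a log2 change of 0.17 with PTH (adjusted p = 0.209), 0.20 with PTHrP (0.132) and 0.18 with both (0.0890), so the gene as a whole did not pass.

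Whether probe sets of 1 gene moved apart was examined within each array, for the 13 pairs above the dim level, a test chosen after their values were seen. In Hdac4 the log2 ratio of 1454693_at to 1447566_at was higher by 0.60 in treated than in control arrays (two-sided exact permutation p = 0.0119, which no result over the 84 splits can go below; adjusted p = 0.0774 over the 13 pairs). The ratio of 1436758_at to 1454693_at was -0.26 relative to control (exact p = 0.0119, adjusted p = 0.0774). No pair passed after adjustment. With this lowest possible p, the Hdac4 pairs by themselves could not have passed over 13 pairs, so the adjusted result does not decide the question. Which transcripts or exons the 3 Hdac4 probe sets match was not analysed here.

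**Figure D2:**
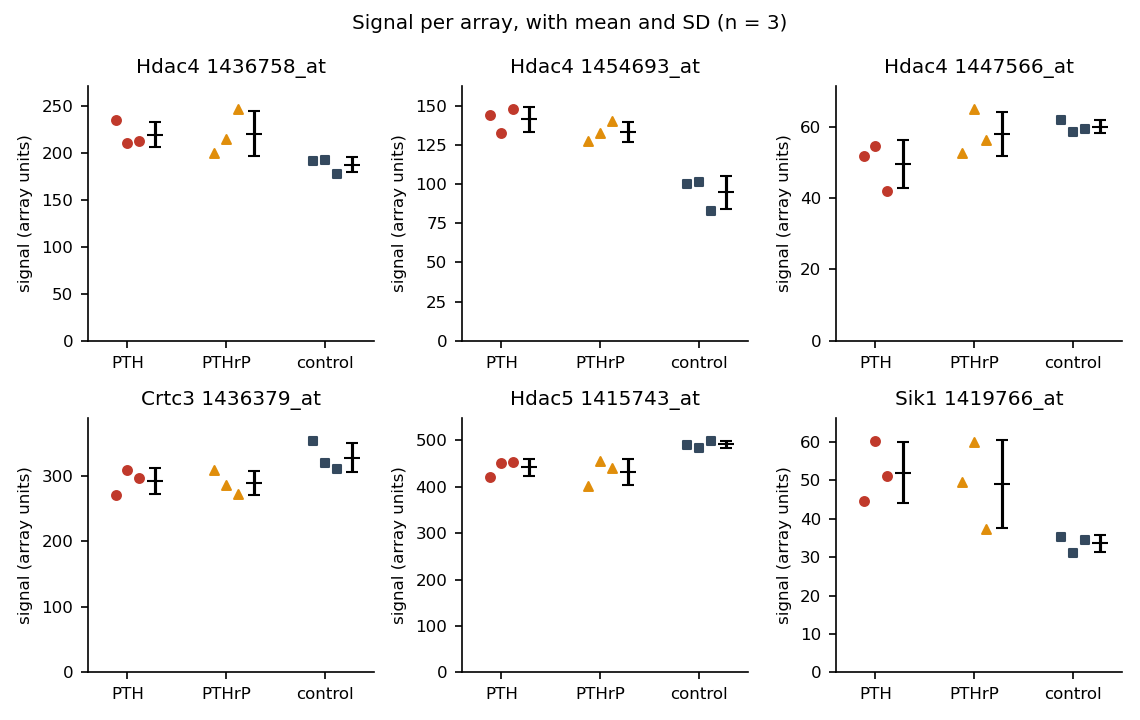
Signal (array units) on each of the 9 arrays for the 3 probe sets of Hdac4 and those of Crtc3, Hdac5 and Sik1 with all treated arrays beyond the controls, with PTH, PTHrP and control from left to right. Each coloured point is 1 array, and the black bar gives the mean with its SD (n = 3). The treated points of Hdac4 1454693_at sit between 127 and 148, above the controls at 82.7 to 101.

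Hdac5, a class IIa deacetylase known as a substrate of several stress kinases, read 421, 452 and 453 with PTH, 401, 455 and 440 with PTHrP, and 490, 483 and 499 in controls (1415743_at, its one probe set). All treated arrays lay below all controls. The changes of -0.15 with PTH (95% interval -0.29 to -0.00) and -0.18 with PTHrP (-0.33 to -0.03) did not pass (adjusted p = 0.338 and 0.239).

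Hdac7, a class IIa member best known from endothelium and thymocytes, read 471, 461 and 493 with PTH, 443, 549 and 431 with PTHrP, and 533, 490 and 479 in controls (1420813_at). The arrays overlapped, with changes of -0.07 and -0.08. The second Hdac7 probe set had changes of -0.04 and 0.02, also with overlap.

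Across the 22 probe sets, 5 had all 6 treated arrays beyond all 3 controls, and 11.6% of all probe sets did so. In 3 of them, one of Sik1 and both brighter Hdac4 probe sets, the treated arrays were higher, and in those of Crtc3 and Hdac5 they were lower. The number of such probe sets among the 22 was 3 when arrays were centred on their median and 6 when they were centred on their 75th percentile. The 11.6% belongs to the values without centring. The share of all probe sets was not counted under either centring, so these counts cannot be set against a background. Neither centring moved the median of all probe sets by more than 0.01 log2 units.

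**Figure D3:**
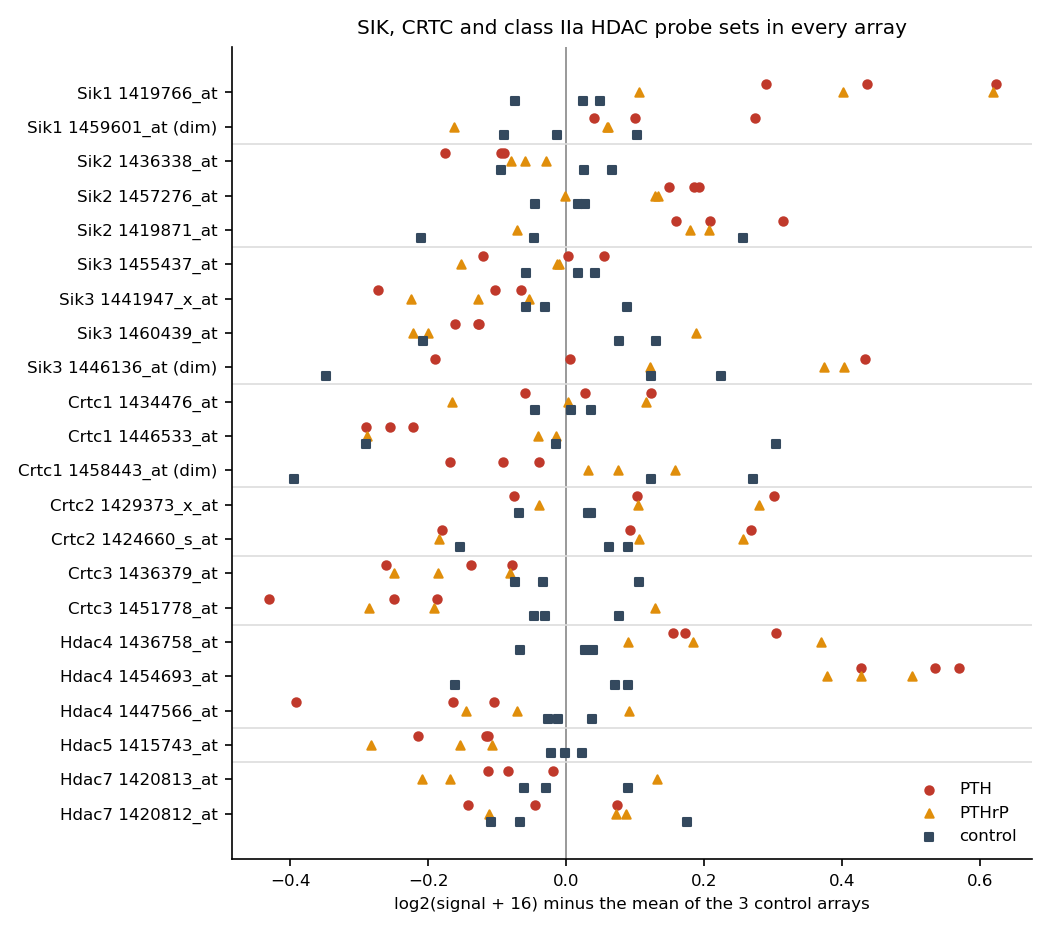
Difference of each array's log2(signal + 16) from the control mean (x axis) for the 22 probe sets (rows, ordered as kinases, coactivators and deacetylases), each point 1 array, with PTH as circles above PTHrP as triangles and control as squares in each row. In the Hdac4 row 1454693_at all 6 treated points lie to the right of the controls, and in 17 of the 22 rows treated and control points overlap.

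PTH and PTHrP were given at the same dose for the same time, as 1 pair of peptides, so their difference could be tested directly. None of the 22 probe sets passed, and none of all probe sets did (0%). At an unadjusted p under 0.05, limma found 0 of the 22, where it found 4.24% of all probe sets. For the 19 probe sets above the dim level the difference was at most 0.18 log2 units in size, and its 95% intervals lay between -0.46 and 0.41. For Hdac4 1454693_at the difference was 0.07 (95% interval -0.11 to 0.26), and for Sik1 1419766_at it was 0.07 (-0.23 to 0.38). A p-value above the threshold does not show that the peptides act alike, and the intervals leave room for differences of up to about these bounds.

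Genes around this switch were read from lists of textbook members, with the brightest probe set of each gene. These lists were drawn up with earlier results of these data known, so their counts are a description and not independent support for a direction. By the same measure 3.79% of all genes passed with PTH, 3.38% with PTHrP and 5.73% with both peptides combined. The comparisons with PTH and with PTHrP share the 3 control arrays.

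Among 11 genes of the receptor, Gs, protein kinase A and LKB1 (the kinase that activates salt-inducible kinases), 1 fell with each peptide and 10 did not pass. This was Pth1r, the receptor itself, at 224, 239 and 279 with PTH, 231, 253 and 250 with PTHrP, and 332, 344 and 333 in controls. It fell by 0.43 with PTH (adjusted p = 0.0360) and by 0.43 with PTHrP (adjusted p = 0.0348), with no overlap. Its PTH call was lost without any of PTH arrays 1 and 2, the PTHrP arrays or the controls (adjusted p = 0.0534 to 0.133). Its PTHrP call was lost without PTH array 2, any PTHrP array or any control (0.0643 to 0.129). It was also lost in 5 other alternatives with PTH and 3 with PTHrP. With both peptides combined Pth1r fell by 0.43 (adjusted p = 0.0142), which was lost without control 2 or 3 (0.0667 and 0.0592). There Prkar2b, a regulatory subunit of protein kinase A, rose by 0.29 (adjusted p = 0.0428), lost without any array but control 1 (0.0544 to 0.140).

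Among 7 genes of the 14-3-3 family, the proteins that hold phosphorylated CRTCs and HDACs in the cytoplasm, 0 passed with either peptide alone. With both combined 1 fell, Ywhah, by 0.23 (adjusted p = 0.0332), a call lost without any 1 of the 9 arrays (0.0547 to 0.122). Among 8 other kinases of class IIa HDACs (protein kinase D and CaM kinases), 0 passed with either alone. With both combined 1 fell, Prkd1, a protein kinase D, by 0.21 (adjusted p = 0.0455), again a call lost without any 1 array (0.0763 to 0.150).

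Of the partners of class IIa HDACs, 6 of 8 listed genes had a probe set of their own, and 2 fell with each peptide while 4 did not pass. Both were MEF2 transcription factors, the DNA-binding proteins that class IIa HDACs repress. Mef2a read 1004, 962 and 973 with PTH, 1007, 922 and 991 with PTHrP, and 1266, 1351 and 1282 in controls. It fell by 0.40 with PTH (adjusted p = 0.0114) and by 0.41 with PTHrP (adjusted p = 0.0104), with a wide gap between treated and control arrays. The Mef2a call with PTH was lost without PTH array 2 (adjusted p = 0.0603) or PTH array 3 (adjusted p = 0.0640).

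Mef2c read 94.7, 110 and 112 with PTH, 108, 95.1 and 96.9 with PTHrP, and 165, 152 and 153 in controls. It fell by 0.51 with PTH (adjusted p = 0.0137) and by 0.58 with PTHrP (adjusted p = 0.00799), again with no overlap. The combined comparison gave the same count of 2 that fell. Over all their probe sets, 4 of 6 for Mef2a and 2 of 5 for Mef2c fell with both peptides. Hdac9, the class IIa deacetylase outside the 9 genes, had a change of 0.15 with PTH and 0.00 with PTHrP, and did not pass.

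MEF2 factors are also abundant in muscle, and the summed signal of the 4 smooth muscle and pericyte markers was 13828 to 14068 with PTH, 13188 to 13862 with PTHrP, and 14582 to 14787 in controls. Such a sum mostly follows its brightest probe sets. Of those 4 markers, 1 fell with each peptide, Myh11 (smooth muscle myosin), by 0.38 with PTH (adjusted p = 0.0457) and by 0.45 with PTHrP (adjusted p = 0.0231). The Myh11 call was lost without any of 6 arrays with PTH (0.0710 to 0.154) and any of 5 with PTHrP (0.0537 to 0.0856), and it was lost in both when its probe sets were averaged (0.151 and 0.0933). The 4 skeletal muscle markers summed to 390 to 418 with PTH, 356 to 424 with PTHrP, and 430 to 548 in controls, with 2 of them below the dim level, and Acta1 fell with PTHrP, by 0.42 (adjusted p = 0.0442), a call lost without any 1 array (0.0549 to 0.147). The part of these cells in the Mef2 values was not tested. In bulk RNA, fewer cells of a type and less RNA per cell cannot be told apart.

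Among 6 targets of MEF2 and class IIa HDACs, 2 fell with PTH and 1 with PTHrP. Slc2a4, the insulin-regulated glucose transporter GLUT4, read 756, 755 and 769 with PTH, 789, 711 and 712 with PTHrP, and 1024, 891 and 974 in controls. It fell by 0.33 with PTH (adjusted p = 0.0493) and by 0.38 with PTHrP (adjusted p = 0.0320). The PTH call was lost without any 1 array (adjusted p = 0.0546 to 0.158), and the PTHrP call was lost without any array but control 2 (0.0514 to 0.101). In 6 other alternatives with PTH and 4 with PTHrP the Slc2a4 call was lost too, with adjusted p-values of up to 0.134 for PTHrP.

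Klf2, a transcription factor induced through MEF2 in endothelium, read 319, 348 and 338 with PTH, 321, 383 and 377 with PTHrP, and 458, 460 and 499 in controls. It fell by 0.48 with PTH (adjusted p = 0.0201), and its change of -0.38 with PTHrP had an adjusted p of 0.0505. The Klf2 call with PTH was lost without any of the PTH arrays or without control 2 or 3 (adjusted p = 0.0628 to 0.0860). The difference between the peptides in Klf2 was -0.10 and did not pass. For both Klf2 and Slc2a4 all treated arrays lay below all controls. With both peptides combined 3 of the 6 fell, these and Klf4, a related transcription factor, by 0.32 (adjusted p = 0.0266). The Klf4 call was lost without any of 5 arrays (0.0601 to 0.105), that of Slc2a4 without control 1 or 3 (0.0643 and 0.0713) and that of Klf2 without control 3 (0.0619).

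On the CREB side, 8 of 9 listed partners and regulators of CRTCs had a probe set, and 1 rose with each peptide. This was Crem, which encodes CREB-family activators and the inducible repressor ICER. It read 387, 401 and 404 with PTH, 445, 410 and 367 with PTHrP, and 201, 215 and 196 in controls. The rise was 0.91 with PTH (adjusted p = 0.000876) and 0.94 with PTHrP (adjusted p = 0.000691), and all treated arrays were far above the controls. Of the 4 Crem probe sets, all above the dim level, 2 rose with both peptides and 2 did not pass, with changes of 0.30 and -0.09 with PTH and of 0.02 and -0.33 with PTHrP. Averaged over them, the Crem change was 0.46 with PTH (adjusted p = 0.00441) and 0.31 with PTHrP (adjusted p = 0.0257). The remaining 7, Creb1 among them, did not pass.

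Of 11 CREB and CRTC target genes, 5 rose with each peptide and 6 did not pass. The largest estimate was that of Tnfsf11, the osteoclast factor RANKL, at 231, 278 and 268 with PTH, 287, 226 and 204 with PTHrP, and 69.8, 61.7 and 68.9 in controls. Tnfsf11 rose by 1.73 with PTH (adjusted p = 0.000426) and by 1.61 with PTHrP (adjusted p = 0.000537). The phosphodiesterases Pde4d and Pde4b, which degrade cAMP, rose by 0.97 and 0.77 with PTH and by 0.96 and 0.78 with PTHrP. Averaged over probe sets, some of them below the dim level, the changes of Pde4d were 0.57 with PTH and 0.44 with PTHrP, and those of Pde4b 0.36 and 0.45, and all 4 passed.

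The orphan nuclear receptor gene Nr4a3 rose by 0.92 with PTH and by 0.93 with PTHrP at its brightest probe set (adjusted p = 0.00675 and 0.00598). Averaged over the probe sets of Nr4a3, of which 2 of 3 lay below the dim level, neither comparison passed (0.25, adjusted p = 0.0785, and 0.28, adjusted p = 0.0523). Pck1, a gluconeogenic and glyceroneogenic enzyme, was the fifth that rose, and it did not pass when its probe sets were averaged (adjusted p = 0.290 with PTH and 0.408 with PTHrP). The same 5 rose with both peptides combined. Fos, Nr4a1 and Per1, early CREB targets, did not pass at 4 h.

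Of 12 other kinases of the AMPK family, to which the salt-inducible kinases belong, 1 fell with each peptide. This was Nuak1, an LKB1-activated kinase, at 305, 291 and 295 with PTH, 264, 261 and 290 with PTHrP, and 571, 687 and 575 in controls. It fell by 1.00 log2 units with PTH (adjusted p = 0.000840) and by 1.12 with PTHrP (adjusted p = 0.000503). Both calls held with any 1 array left out. With both peptides combined Mark1, a related kinase, also fell, by 0.38 (adjusted p = 0.0297), a call lost without any array but control 3 (0.0515 to 0.117). No salt-inducible kinase probe set above the dim level had a change of that size, the largest being the 0.45 of Sik1.

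**Figure D4:**
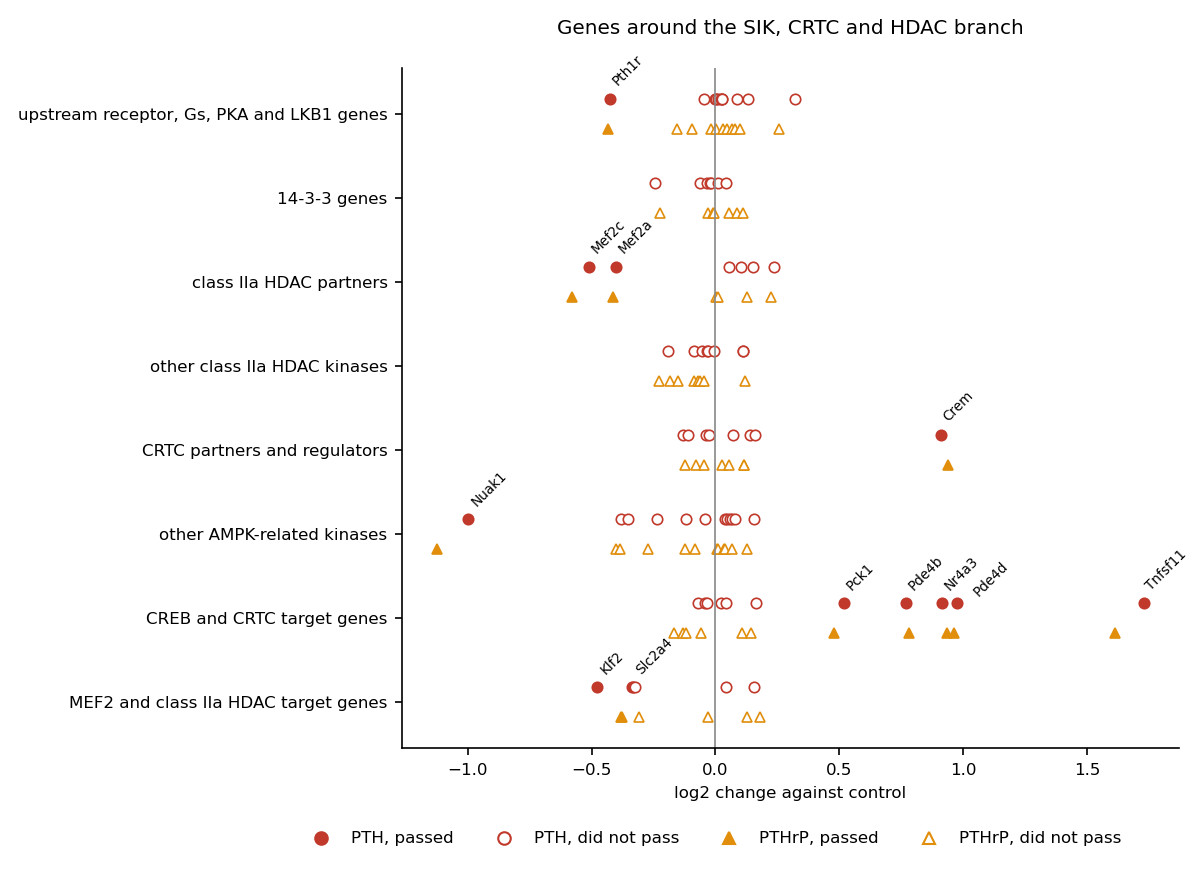
Log2 change against control of the brightest probe set of each gene in 8 lists around the switch, with PTH (circles) above PTHrP (triangles) in each row. Filled symbols passed the adjusted threshold of 0.05, and genes that passed with PTH are named: 5 CREB and CRTC targets and Crem lie to the right of 0, and Nuak1, Mef2a, Mef2c, Pth1r, Klf2 and Slc2a4 lie to the left.

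The genes whose signal followed that of Hdac4 1454693_at most closely over the 9 arrays were Mdfic (Pearson r = 0.988), Bcl6 (0.987), Mob3b (0.986), Rnf126 (0.985) and Cpeb3 (0.982), among 12823 genes above the dim level. Of these genes, Mob3b passed with each peptide, Mdfic and Cpeb3 with PTH only, and Bcl6 and Rnf126 with neither. The changes of Bcl6 were 0.14 with PTH and 0.11 with PTHrP. The 9 points share the same 3 groups, and the correlations are a description with no test.

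Promoters were searched for the core of the cAMP response element that CREB can bind, TGACG on either strand, in the 250 bases before the start of transcription as given by RefSeq (GRCm38.p6). Of the 9 genes, 7 were found in that table, and Sik1 and Crtc2 were not in it. The core was present for Sik3 and Hdac4 and not found for the other 5, while 17.8% of all promoters of that length hold one. The full palindrome TGACGTCA, which contains the core on both strands, was found in 0 of the 10 windows of these genes and in 1.55% of all promoters. The windows of Sik3 and Hdac4 are shown because they hold the matches, in capitals, and because Hdac4 has the probe set that rose while no Sik3 probe set passed. Sik3 is at chr9:46012570-46012819 on the plus strand, with matches 133, 116 and 57 bases before the start, and Hdac4 is at chr1:92180342-92180591 on the minus strand, with matches 103 and 51 bases before it.
Sik3: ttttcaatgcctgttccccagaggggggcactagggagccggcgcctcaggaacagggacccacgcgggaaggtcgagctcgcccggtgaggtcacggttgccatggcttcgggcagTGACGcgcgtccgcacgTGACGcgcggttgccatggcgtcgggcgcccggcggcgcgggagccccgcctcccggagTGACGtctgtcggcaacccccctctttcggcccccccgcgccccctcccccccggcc
Hdac4: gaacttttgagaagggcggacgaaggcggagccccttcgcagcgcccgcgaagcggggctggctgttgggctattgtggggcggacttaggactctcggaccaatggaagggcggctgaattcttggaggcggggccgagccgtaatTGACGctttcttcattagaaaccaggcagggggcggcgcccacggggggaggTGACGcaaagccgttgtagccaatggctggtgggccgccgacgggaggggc
A match in these letters is a description and not evidence of binding.

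Adipocyte markers were bright on every array, with Adipoq (adiponectin) at 13500 to 14819 with PTH, 12967 to 13687 with PTHrP, and 13279 to 13851 in controls, and 0 of the 6 measured adipocyte markers passed with either peptide alone. With both combined 1 rose, the lipid droplet gene Cidec, at 2920, 3125 and 3043 with PTH, 3256, 3183 and 2804 with PTHrP, and 2496, 2476 and 2480 in controls. Its change of 0.29 had an adjusted p of 0.0316 and was lost without any array but PTHrP 3 (0.0559 to 0.106). Summed macrophage markers were 877 to 1004 with PTH, 859 to 948 with PTHrP, and 802 to 883 in controls, and 0 of 6 passed. Of these 6, 2 lay below the dim level. Summed endothelial markers were 185 to 224 with PTH, 193 to 274 with PTHrP, and 247 to 290 in controls, and 0 of 4 passed. One (1 of the 4) lay below the dim level. Summed preadipocyte and fibroblast markers were 7909 to 8030 with PTH, 7725 to 8676 with PTHrP, and 8128 to 8517 in controls, and 0 of 5 passed. The 3'/5' ratio of actin, a measure of RNA integrity, was 1.59 ± 0.0455 on treated arrays (SD, n = 6) and 1.47 ± 0.0324 on control arrays (SD, n = 3), again at the lowest possible exact permutation p of 0.0119 (two-sided). For Gapdh it was 0.972 ± 0.0207 on treated arrays and 0.965 ± 0.0186 on control arrays (p = 0.643 by the same exact test). The actin ratio of every treated array (1.52 to 1.65) lay above that of every control (1.45 to 1.51). The part of RNA integrity in the Hdac4 values, or in any other change against control, was not tested.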

How the data were processed

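The authors deposited 1 table of signal intensity for 9 mouse Affymetrix arrays, and biotin-labelled cRNA was hybridised per the labels. How these intensity values were summarised, background-corrected and scaled is not stated in the labels. A linear scale was inferred from their range, with array medians of 48.2 to 52.6 and maxima of 17113 to 18614. No 2 arrays were identical, and correlations within a group were 0.993 to 0.995.

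Of 45101 probe sets, 64 array controls were left out and 45037 were tested. Platform annotation gave 1 symbol to 34945, several to 932 and none to 9160. For each probe set, log2(intensity + 16) entered a limma 3.58.1 fit (R 4.3.3, statmod 1.5.0) with 3 group means and no covariate. The 4 comparisons used two-sided tests and Benjamini-Hochberg adjustment over all probe sets at 0.05. The fit was tested on simulated data. Python 3.11.15 and matplotlib 3.10.9 drew the figures.

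Every probe set of the 9 genes is accounted for. Those that passed, and the brightest of each gene, are given for every array. From each pathway list, up to 4 genes that passed with the largest changes were named, and Pck1, Hdac9, Creb1, Fos, Nr4a1, Per1 and those that passed only with both peptides were added afterwards, as were the further probe sets described array by array. The genes and lists were chosen with earlier results of these data known. Ncor1, Atf1, Plin1, Cfd and Ly6a had no probe set of their own, and 1 listed gene is not reported here. Alternatives were the normalization, centring, filter, probe set summary, variance model, array weights, replicate block, pseudocount, arrays fitted and threshold. The number of arrays limits the precision. No positions other than RefSeq promoters are given, as the files name no genome build.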

Additional observations from a re-analysis of the deposited data

How the results depend on the processing

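No change of the 22 probe sets reversed a called direction in any alternative. Of 1762 repeats of their 88 comparisons, 1741 kept their side of the threshold, 19 lost a call (all Hdac4 1454693_at) and 2 gained one (both Sik1). Only 3 of the 88 had a call to lose or reverse, all of Hdac4 1454693_at, so most repeats that kept their side had no call. The Hdac4 call was lost in 5 of 20 repeats with PTH, 13 of 20 with PTHrP and 1 of 19 with both. The number of the 22 that passed was 1 in each comparison with control. With PTH it was 0 with the brightest probe set of each gene, with probe sets averaged per gene, with only the groups compared, at an adjusted p below 0.01 and with a fold of at least 1.5. With PTHrP it was 0 in those same settings and with a pseudocount of 1 (adjusted p = 0.0551). With both peptides it was 2 of the 19 kept with the dimmest 40% left out, where 3093 of all 27022 probe sets kept passed. It was 0 with the brightest probe set (1529 of 18193 genes passed) and with averaged probe sets (1109 of 18193). At a fold of at least 1.5 it was also 0 (382 of 45037 probe sets). The settings with 1 value per gene count the 9 genes in place of the 22 probe sets. Leaving out 1 array gave 0 to 1 with PTH, 0 to 0 with PTHrP and 1 to 2 with both, the 2 being without PTHrP array 3. For PTH against PTHrP it was 0 throughout.

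Over all probe sets, 1217 passed with PTH, 1076 with PTHrP and 1860 with both. Leaving out 1 array gave 398 to 1090, 468 to 795 and 860 to 1588, and the other alternatives at the same threshold gave 518 to 2611, 365 to 2375 and 949 to 3384. The highest counts came with the trended and robust variance. For PTH against PTHrP the 0 became 1 with a pseudocount of 1 or without PTHrP array 1.

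The replicate numbers gave no clear sign of pairing: deviations of same-numbered arrays correlated at -0.20 to 0.17, above 0.1 in 2 of 9 pairs, and the other 18 pairs at -0.23 to 0.32. These correlations cannot show whether same-numbered arrays shared a mouse or culture. With the replicate block the number of the 22 that passed was 0 with PTH, 0 with PTHrP and 1 with both, over all probe sets 518, 467 and 949, and Hdac4 1454693_at, at unchanged changes of 0.51 and 0.44, had adjusted p = 0.0722 with PTH and 0.119 with PTHrP. With the block, Mef2a had 0.0575 with PTH and 0.0571 with PTHrP, and Mef2c 0.0644 with PTH. With only the groups compared, Mef2a had 0.0674 with PTHrP. With PTH, Pth1r was also lost with median centring (0.0512), array weights (0.0600), the block (0.0717), a pseudocount of 1 (0.0620) and only the groups compared (0.0899), and with PTHrP with array weights (0.0605), the block (0.0734) and a pseudocount of 1 (0.0596). With PTH, Slc2a4 was lost with quantile normalization, both centrings, the block, a pseudocount of 1 and only the groups compared (0.0585 to 0.105), and with PTHrP with median centring, the block, a pseudocount of 1 and only the groups compared (0.0548 to 0.134). Klf2 passed with PTHrP in 5 alternatives (0.00321 to 0.0289). Signals near the dim level, as those of Sik1, limit what a change can show. The genes that passed only with both peptides combined were put through these alternatives after their values were seen, and Cidec, Klf4, Mark1, Prkar2b, Prkd1 and Ywhah lost their calls with the block (0.0672 to 0.114). The cause of these moves was not tested.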
